A study of Mus musculus with 3 samples.

Results

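The genes described here encode the proteins of the cytosolic ribosome. They were chosen by name from the 33696 genes of the count tables: every symbol that starts with Rpl or Rps and a digit, with Rplp0, Rplp1, Rplp2 and Rpsa. Leaving out 5 symbols that carry a pseudogene ending and 10 symbols of the ribosomal S6 kinase families gave 87 members. Of these, 77 encode subunit proteins, 46 of the large and 31 of the small subunit. Another 7 were counted as paralogs or retrogene copies (Rpl22l1, Rps27l, Rps27rt, Rpl10l, Rpl36al, Rpl39l and Rpl3l). The last 3 were put in neither group (Rps19bp1, Rps23rg1 and Rpl7l1), although Rpl7l1 resembles Rpl7, with 50.3% identity over the aligned coding bases.

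The study is about Fabp4, a fatty acid binding protein, and its title sets leukaemia stem cells beside normal haematopoietic stem cells. Bone marrow cells were sequenced as single cells with a 3' kit in 3 libraries, each from 2 pooled mice: wild type, a heterozygous knockout and a homozygous knockout of Fabp4. The labels give no strain, age or sex, no detail of the deleted allele, and no statement on whether the marrow carried leukaemia. With 1 library for each genotype no test across animals was possible, so every difference below compares libraries, and each interval is a 95% exact interval for counting error only. UMIs, the molecule tags counted here, share a cell and a library, so the spread between mice would be wider than these intervals.

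A ribosome holds each of its proteins in 1 copy, apart from the acidic stalk proteins, and cells make the set in near equal amounts. Most of these genes start transcription in a run of pyrimidines, the 5' terminal oligopyrimidine (TOP) tract, through which mTORC1 and the binding protein Larp1 set how much of the message is translated. In marrow, the granulocyte-monocyte progenitor (GMP) divides and makes granule proteins, whereas the mature neutrophil has left the cell cycle and makes little new protein. Loss of a single copy of certain members (Rps19 is the best known) causes Diamond-Blackfan anaemia, and loss of Rps14 contributes to a myelodysplastic syndrome.

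Runs of at least 7 pyrimidines were looked for from 15 bases before to 15 bases after each RefSeq start (GRCm38.p6). They were found in 35 of the 67 members with an entry, or 52.2%, and in 21.3% of all 27025 genes in the table. Annotated starts can be off by some bases, so a missing run says only that these letters are not in the 30-base window. The windows below are shown for the members that stood apart from the rest in the results: Rps27 and Rps9 fell least in mature neutrophils, Rpl36a and Rpl12 fell most, Rps15 and Rpl35 took a smaller share of ribosomal protein UMIs in the homozygous library, and Rpl4 and Rpl35a a larger share. Capitals mark the longest run of C and T in the window.
Rps27 (chr3:90213634-90213663, minus strand): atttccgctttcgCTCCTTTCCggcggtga
Rps9 (chr7:3704026-3704055, plus strand): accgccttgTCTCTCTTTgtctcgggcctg
Rpl36a (chrX:134585639-134585668, plus strand): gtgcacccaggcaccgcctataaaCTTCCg
Rpl12 (chr2:32961697-32961726, plus strand): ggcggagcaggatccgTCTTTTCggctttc
Rps15 (chr10:80292416-80292445, plus strand): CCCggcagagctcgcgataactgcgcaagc
Rpl35 (chr2:39005117-39005146, minus strand): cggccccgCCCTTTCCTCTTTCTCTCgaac
Rpl4 (chr9:64173372-64173401, plus strand): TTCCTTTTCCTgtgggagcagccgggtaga
Rpl35a (chr16:33056467-33056496, plus strand): gcggggcttgCCTTCCTCTTTCCgccatct
Among members that fell least and members that fell most there was at least 1 with a run of 7 or more, and the windows of Rps15 and Rpl35, whose shares moved the same way, held the shortest and longest runs of these 8.

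The libraries held 9432 wild-type, 10718 heterozygous and 8115 homozygous barcodes, of which 5604, 7957 and 4318 passed the filters on UMIs (500 or more), detected genes (200 or more) and mitochondrial reads (under 10%). Kept cells had median depths of 10058, 7658 and 9036.5 UMIs. Fabp4 itself gave 50, 38 and 5 UMIs in the kept cells, or 0.745, 0.521 and 0.108 CPM (counts per 1000000 UMIs), so the order followed the genotype labels at a level close to the detection limit. Groups were taken from those labels, since the letters in the sample titles alone could be read with the knockouts exchanged. Between 6 and 15 kept barcodes were shared by any pair of libraries, and 0 by all 3. The libraries differed in sex markers: cells with Xist and no Y-linked UMI numbered 5151, 1148 and 3636, and cells with Y-linked UMIs and no Xist 74, 4507 and 142. Cells were put in classes by marker panels without ribosomal protein genes; 4 classes had at least 100 cells in each library and are compared below, namely GMP-like, monocyte-like, immature neutrophil-like and mature neutrophil-like cells.

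The 77 subunit genes were all captured in each library, and they gave 98.9% of the ribosomal protein UMIs in all 3. Levels are in CPM, where each UMI is 1 captured 3' end and no length enters, and capture may differ between genes. The highest was Rps24, a small subunit protein, at 3630, 2416 and 3561 CPM in the wild-type, heterozygous and homozygous libraries. The lowest was Rpl4, a large core protein of the large subunit, at 550, 358 and 589 CPM. The median subunit gene stood at 1905, 1279 and 1682 CPM, and the 10 highest members together took 21.4%, 21.3% and 21.2% of the ribosomal protein UMIs. No small set of members thus dominated the total. Large subunit UMIs exceeded small subunit UMIs by a ratio of 1.21, 1.21 and 1.22 in GMP-like cells and of 1.11, 1.14 and 1.12 in mature neutrophil-like cells. At least 50 UMIs in the kept cells were found for 84, 85 and 84 of the 87 members. Rpl10l and Rps23rg1 stayed under that minimum in every library, and Rpl39l in the wild-type and homozygous ones.

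Ribosomal protein genes gave 14.9% of all UMIs of wild-type cells (95% exact binomial interval 14.861 to 14.878), 9.92% of heterozygous and 13.6% of homozygous cells. The median cell gave 12.8%, 5.99% and 10.7%. In GMP-like cells the share was 18.4%, 16.3% and 16.9%. In monocyte-like cells it was 14.99%, 13.1% and 13.9%. In immature neutrophil-like cells, the stage of secondary granules, it was 9.74%, 7.85% and 8.54%. In mature neutrophil-like cells it was 4.82% (4.78 to 4.87), 3.77% (3.75 to 3.78) and 3.51% (3.48 to 3.55). The wild-type library was therefore highest in each of the 4 classes, and the homozygous library lay above the heterozygous one in 3 of them. The homozygous minus wild-type difference was −1.52 points in GMP-like, −1.06 in monocyte-like, −1.20 in immature and −1.31 in mature neutrophil-like cells. The heterozygous minus wild-type difference was −2.07, −1.88, −1.89 and −1.06 points in the same order. In mature neutrophil-like cells a stricter gate brought these differences to −0.645 and −0.603 points. With cells grouped by Leiden clusters in place of the marker gate, the homozygous minus wild-type difference in immature neutrophil-like cells turned to 0.297 points. The value of the wild-type library enters both differences.

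**Figure D1:**
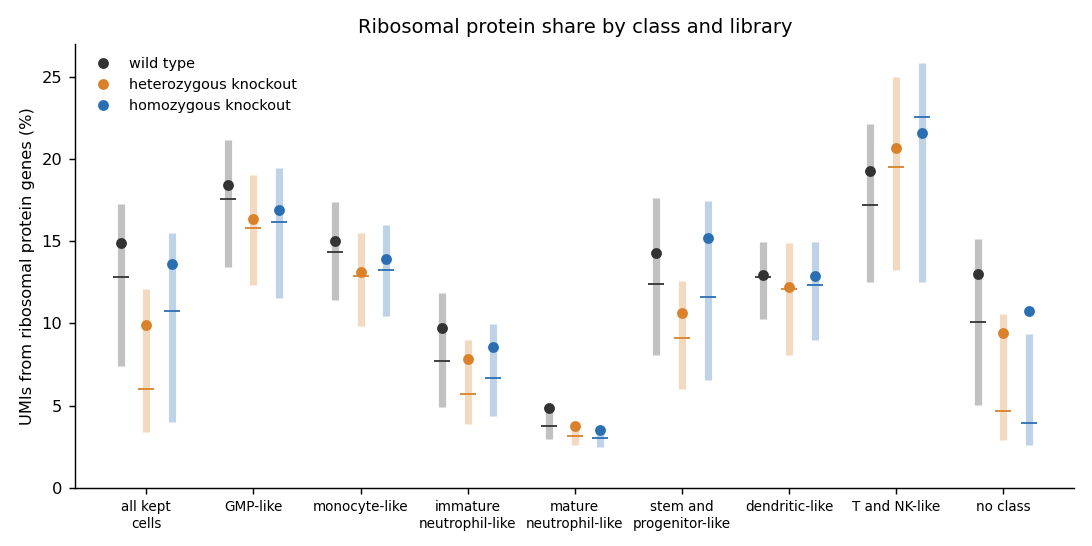
Share of UMIs from ribosomal protein genes (%, vertical axis) in all kept cells and in each marker-gated class, by library; points are the share of summed UMIs, horizontal ticks the median cell and pale bars the middle of the cells, from the 25th to the 75th percentile. The share falls from about 18.4% in wild-type GMP-like cells to 4.82% in wild-type mature neutrophil-like cells, and the wild-type point is highest in the first 4 classes after all kept cells.

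Among smaller classes the order varied. Stem and progenitor-like cells gave 14.3% in 547 wild-type cells, 10.6% in 218 heterozygous cells and 15.2% in 78 homozygous cells. By the median cell the same class stood at 12.4%, 9.09% and 11.6%, so the homozygous library was highest in the sum and below the wild type in the median. T and NK-like cells gave 19.3%, 20.7% and 21.6%, with 25, 17 and 29 cells, and dendritic-like cells 12.94%, 12.21% and 12.87%, the order of the larger classes. Of the classes given, lymphocyte-like cells thus carried the largest share of summed UMIs in every library, with the wild type lowest there. By the median cell this order did not hold in the wild type, with 17.2% in T and NK-like and 17.6% in GMP-like cells. It did hold in the heterozygous library, at 19.5% against 15.8%, and in the homozygous library, at 22.5% against 16.2%.

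The heterozygous library was richer in cells of low share: mature neutrophil-like cells were 21.5% of its kept cells, against 3.05% in the wild-type and 4.31% in the homozygous library. With the 4 classes, stem and progenitor-like and dendritic-like cells weighted by their UMIs in the wild-type library, the share became 15.4%, 13.2% and 14.4% in the wild-type, heterozygous and homozygous libraries. At that mix the heterozygous difference from the wild type went from −5.40 points over the cells of these classes to −2.16, and the homozygous difference from −1.22 to −1.02. In a total over all cells, more neutrophils and a smaller ribosomal protein share within cells cannot be told apart, which is why the class values are given. A class can still differ in make-up between libraries. Among Leiden clusters named monocyte, cluster 7 held 449 wild-type, 7 heterozygous and 3 homozygous cells, and cluster 3 held 265, 156 and 1081. The part of such differences in the class values was not tested.

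Depth moved with the share. In the wild-type library the share rose from 4.96% in cells of 500 to 3000 UMIs to 18.5% in cells of at least 25000, in the heterozygous library from 3.70% to 14.6%, and in the homozygous library from 3.98% to 16.9%. The class mix changes along this axis, but the rise was also present among GMP-like cells alone, from 11.2% to 20.2% in the wild type between 3000 to 6000 and at least 25000 UMIs. At 3000 to 6000 UMIs, GMP-like cells stood at 11.16%, 11.04% and 11.64%, with the homozygous library highest. At 6000 to 12000 UMIs they stood at 14.4%, 14.5% and 13.5%, so the wild-type and heterozygous libraries were level there. At 12000 to 25000 UMIs they stood at 18.3%, 16.4% and 17.4%. In GMP-like cells of at least 25000 UMIs the wild-type library was again highest, at 20.2%. In monocyte-like, immature and mature neutrophil-like cells the wild type was highest in each bin with at least 20 cells in every library. At 6000 to 12000 UMIs monocyte-like cells stood at 14.1%, 13.3% and 13.1%. Immature neutrophil-like cells stood there at 8.25%, 6.11% and 6.85%, and mature ones at 5.57%, 3.69% and 3.12%. The part of depth in the library differences was not tested beyond these bins.

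**Figure D2:**
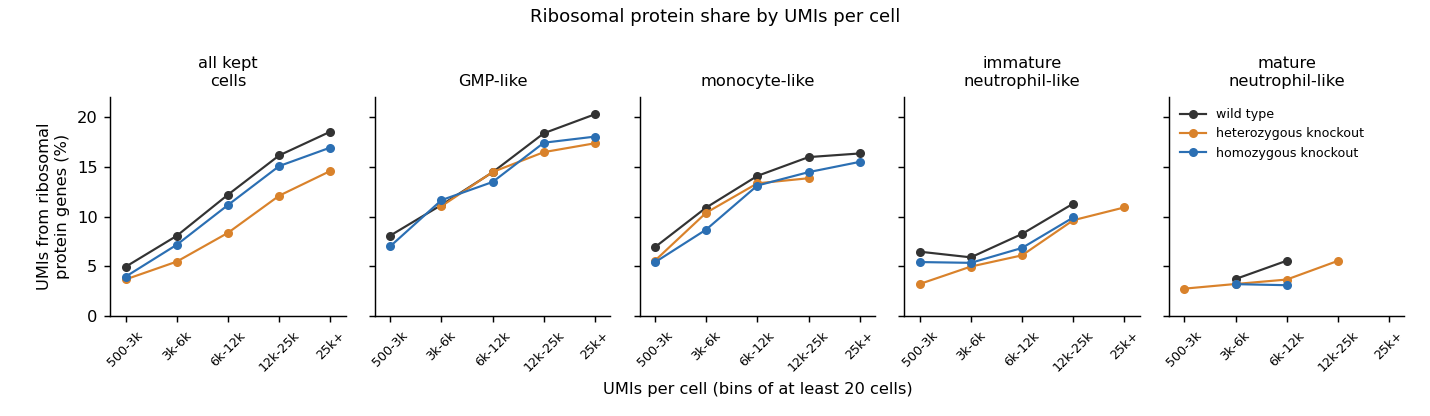
Share of UMIs from ribosomal protein genes (%, vertical axis) by UMIs per cell (5 bins, horizontal axis) for all kept cells and for 4 classes, by library; only bins of at least 20 cells are drawn. The share climbs with depth in all kept cells of each library, and GMP-like cells of the wild-type and heterozygous libraries coincide at 6000 to 12000 UMIs, at 14.4% and 14.5%. In monocyte-like, immature and mature neutrophil-like cells the wild-type point is highest in every bin drawn for all libraries.

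Dividing cells stood above other cells in immature neutrophils. Immature neutrophil-like cells with at least 3 detected dividing-cell genes had shares of 10.9%, 9.64% and 10.03% in the wild-type, heterozygous and homozygous libraries, against 7.86%, 5.87% and 5.85% in cells with none. The former were also deeper, with median depths of 13444, 14194.5 and 11629 UMIs against 6886, 7300 and 7223.5, and the part of depth was not tested. In monocyte-like cells of the heterozygous library the order was the reverse, 12.4% with such genes and 12.9% without. In GMP-like cells the values were 18.5%, 16.0% and 16.8% with such genes and 18.2%, 15.8% and 16.1% without. Cells with at least 3 such genes were 29.7%, 29.7% and 45.4% of immature neutrophil-like cells, and the part of this in the library differences was not tested. Restricting each library to cells with Xist and no Y-linked UMI gave 18.4%, 17.3% and 16.7% in GMP-like, 15%, 13.2% and 13.9% in monocyte-like, 9.99%, 8.46% and 8.86% in immature and 5.08%, 4.65% and 3.67% in mature neutrophil-like cells. The wild-type library was again highest in all 4 classes, and the heterozygous library passed the homozygous one in GMP-like cells.

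Within each library, nearly every member was lower in mature neutrophil-like than in GMP-like cells. The median log2 ratio of CPM over measured members was −1.97 for the wild type, −2.14 for the heterozygous and −2.36 for the homozygous library, beside medians over all genes of −0.49, −0.53 and −0.69. A log2 ratio of −1 or lower was met by 79 of 84 members in the wild type, 80 of 83 in the heterozygous and 80 of 83 in the homozygous library, against 35.8%, 36.2% and 41.7% of all genes. The highest of the 4 classes was GMP-like for 74 of 81, 77 of 83 and 71 of 81 members with enough UMIs in every class, and monocyte-like for 7, 6 and 10. The lowest was mature neutrophil-like for 81 of 81, 82 of 83 and 81 of 81. The primary granule genes Mpo, Elane, Prtn3 and Ctsg, which GMP-like cells make, summed in mature neutrophil-like cells to 4.36%, 3.78% and 2.78% of their GMP-like level. These 4 genes were chosen after their values were seen; the whole panel of 9 GMP genes stood at 24.1%, 27.8% and 19.5%, with Srgn, a granule proteoglycan, at 136%, 131% and 105% and Calr, a chaperone, at 27.7%, 27.9% and 28.8%. The ribosomal protein share was 26.2%, 23.1% and 20.8% of its GMP-like value, and the part of GMP messages in it was not tested.

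**Figure D3:**
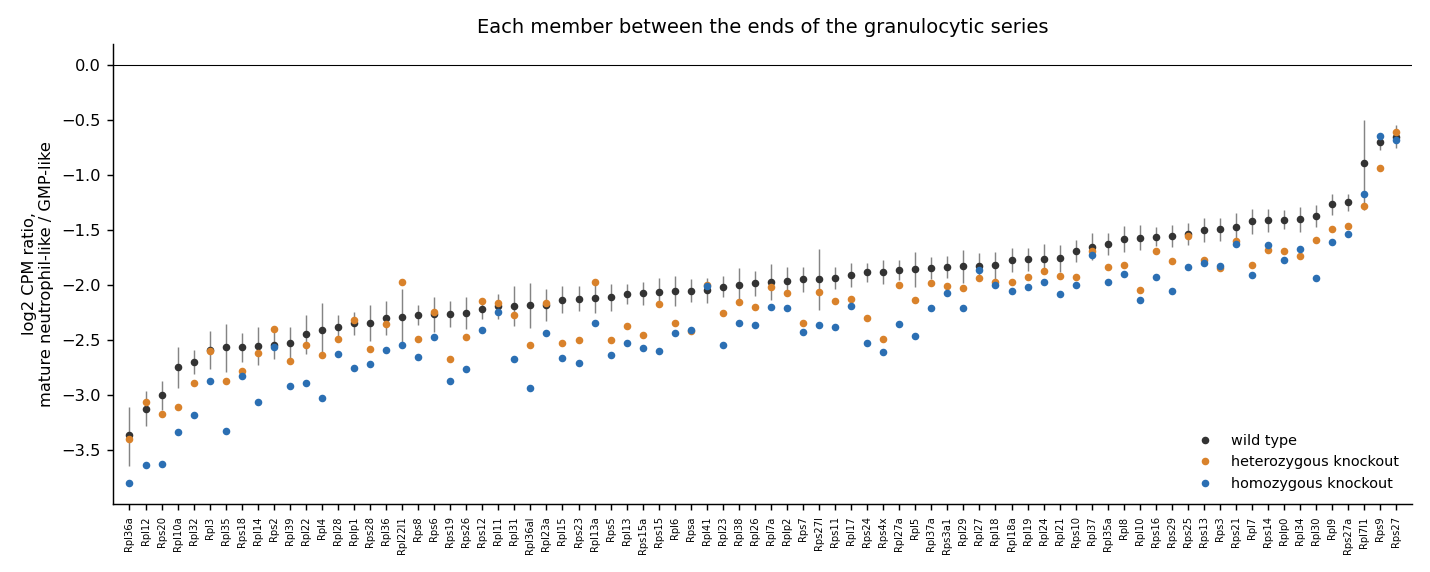
Log2 ratio of CPM in mature neutrophil-like over GMP-like cells (vertical axis) for the members drawn, ordered by the wild-type value, with the 95% counting interval drawn for the wild-type library. All points lie below 0, Rps27, Rps9 and Rpl7l1 come closest to it, and Rpl36a, Rpl12 and Rps20 lie lowest.

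The members did not fall alike. Rps27, a zinc finger protein of the small subunit, stood at 1171 CPM in wild-type GMP-like cells and at 745 CPM in wild-type mature neutrophil-like cells, a log2 ratio of −0.65 (−0.76 to −0.55). In the heterozygous library Rps27 went from 1063 to 699 CPM and in the homozygous library from 1222 to 761 CPM. Its level was highest in monocyte-like cells of each library, at 1343, 1315 and 1323 CPM. Rps9, which lines the mRNA entry side of the small subunit, likewise peaked in monocyte-like cells, at 3438, 3006 and 2873 CPM. Rps9 in mature neutrophil-like cells kept 1609, 1231 and 1443 CPM, against 2620, 2358 and 2261 CPM in GMP-like cells. These members, with Rpl7l1, had the smallest spread over the 4 classes in the wild-type and homozygous libraries, and in the heterozygous library, the only one where it had enough UMIs in every class, the retrogene copy Rps27rt came below them.

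At the other end, Rpl36a, an X-linked large subunit gene, fell from 1200 to 117 CPM in the wild-type library, from 1085 to 103 in the heterozygous and from 1136 to 82.0 in the homozygous library. Its log2 ratios were −3.36 (−3.64 to −3.10), −3.40 and −3.79. Rpl12, a protein at the base of the large subunit stalk, fell from 2857 to 329 CPM, from 2531 to 303 and from 2239 to 181. Rps20, a small subunit head protein, fell from 3786 to 474 CPM, from 3495 to 388 and from 3545 to 288. Rpl10a was also among the 5 members with the largest spread. The paralog Rpl36al, whose coding sequence is 87.9% identical to that of Rpl36a, fell less, with log2 ratios of −2.18, −2.54 and −2.93. The stalk proteins Rplp0, Rplp1 and Rplp2, which bind elongation factors, differed among themselves too: Rplp0 had ratios of −1.40, −1.68 and −1.77, and Rplp1 of −2.35, −2.31 and −2.76. The order of the members by spread was similar in the libraries, with Spearman's rho between 0.918 and 0.963 over 81 members, given as a description because the members share cells, depth and one normalization.

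Between libraries, the members moved as a block. In all kept cells, 75 of 84 members were lower in the homozygous than in the wild-type library, with a median log2 ratio of −0.12, and 42.6% of all genes were lower. The median of all genes was 0.05 in this comparison, so the members lay 0.17 below it. Only 2 members reached −0.5 (Rps15 and Rpl3l), against 8.52% of all genes, and 9 members were higher, against 57.4%: Rps27, Rpl21, Rpl4, Rps27rt, Rps23, Rpl37, Rpl3, Rps19bp1 and Rpl35a. In the heterozygous against the wild-type library 84 of 85 were lower, with a median of −0.59, beside 63.2% and a median of −0.14 over all genes. There 65 members reached −0.5, against 19.4% of all genes, and the single member above 0 was Rpl39l. In the homozygous against the heterozygous library 83 of 85 were higher, with a median of 0.47, beside 66.5% and a median of 0.21 over all genes. The 3 comparisons share libraries and are not independent of each other.

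**Figure D4:**
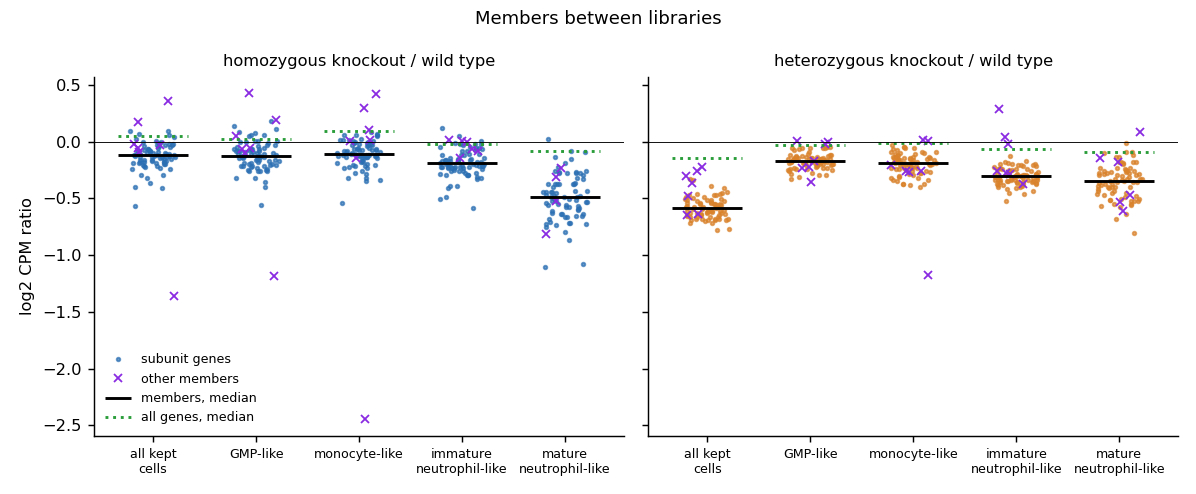
Log2 ratio of CPM for each member (points for subunit genes, crosses for the other members) between the homozygous and wild-type libraries (left) and the heterozygous and wild-type libraries (right), in all kept cells and in 4 classes; black bars are the members' medians and dotted bars the medians of all genes. The member median lies below that of all genes in every column, and on the left it runs from −0.11 in monocyte-like to −0.49 in mature neutrophil-like cells.

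Within classes the block was smaller in the heterozygous comparison and larger in mature neutrophils in the homozygous one. For the homozygous against the wild-type library, 70 of 84 members were lower in GMP-like cells (46.2% of all genes), 67 of 84 in monocyte-like (37.4%), 77 of 83 in immature neutrophil-like (52%) and 80 of 81 in mature neutrophil-like cells (58.9%). The medians were −0.12, −0.11, −0.19 and −0.49. In mature neutrophil-like cells 40 members reached −0.5, against 15% of all genes. For the heterozygous against the wild-type library, 83 of 84, 82 of 84, 82 of 85 and 82 of 83 members were lower, against 54.1%, 52.1%, 59% and 58.9% of all genes, with medians of −0.17, −0.19, −0.30 and −0.34. For the homozygous against the heterozygous library, 61 of 83, 67 of 83 and 71 of 85 were higher in the first 3 classes, against 58.9%, 62.3% and 54.7%, whereas in mature neutrophil-like cells 59 of 83 were lower, against 51.5%. The medians were 0.06, 0.10, 0.12 and −0.09, beside 0.07, 0.11, 0.05 and −0.01 over all genes, so in GMP-like and monocyte-like cells the members did not lie above all genes.

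Members that parted from the block were found from their share of ribosomal protein UMIs, a measure from which the common shift drops out. Rps15, a small subunit head protein, differed most among the subunit genes: it stood at 1587 CPM (1577 to 1596) for the wild type, 984 for the heterozygous and 1070 (1060 to 1079) for the homozygous library. Its share of ribosomal protein UMIs differed between the homozygous and wild-type libraries by a log2 ratio of −0.44 (−0.46 to −0.43). Within GMP-like, monocyte-like, immature and mature neutrophil-like cells the value was −0.44, −0.43, −0.40 and −0.64. The difference was thus present in every class, and its interval left out 0 in each. The classes are parts of the same libraries in which Rps15 was picked out, so they do not repeat the comparison. Among cells with Xist and no Y-linked UMI, Rps15 took 1.07%, 0.962% and 0.781% of ribosomal protein UMIs in the same order.

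Rpl12, Rpl23a and Rpl35, all of the large subunit, were also lower by at least 0.1 on the log2 scale in each of the 4 classes. Rpl23a, which sits at the exit of the peptide tunnel, stood at 1322, 857 and 998 CPM, a homozygous to wild-type log2 ratio within the ribosomal proteins of −0.28 (−0.30 to −0.26). Rpl12 stood at 2082, 1302 and 1580 CPM, a ratio of −0.27, and Rpl35, another tunnel exit protein, at 805, 551 and 626 CPM, a ratio of −0.24. Rpl35 reached −0.62 (−0.99 to −0.25) in mature neutrophil-like cells, where it rested on 96 homozygous and 179 wild-type UMIs. In the same class the interval for Rpl23a, −0.43 to 0.03, held 0.

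Higher in the homozygous library by at least 0.1 in each of the 4 classes were Rpl21, Rpl3, Rpl35a, Rpl37 and Rpl7l1, the last with intervals that held 0 in 3 of the classes. Rpl21, a large subunit protein, stood at 1561, 1133 and 1662 CPM, a homozygous to wild-type ratio within the ribosomal proteins of 0.22 (0.20 to 0.23), with 0.26, 0.19, 0.20 and 0.28 in the classes. Rpl3, which reaches toward the peptidyl transferase centre, stood at 1309, 850 and 1362 CPM, a ratio of 0.18. Rpl4 stood at 550, 358 and 589 CPM, a ratio of 0.22 (0.20 to 0.25), and was level in mature neutrophil-like cells at 0.02 (−0.36 to 0.39). Rps23, a protein of the decoding site, had a ratio of 0.20 over all cells and −0.02 in mature neutrophil-like cells. In all, 6 members were at least 0.25 from 0 in this comparison. Of the members that moved in all 4 classes, Rps15 belongs to the small subunit. The others named belong to the large subunit, apart from Rpl7l1, which was not counted as a subunit gene.

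**Figure D5:**
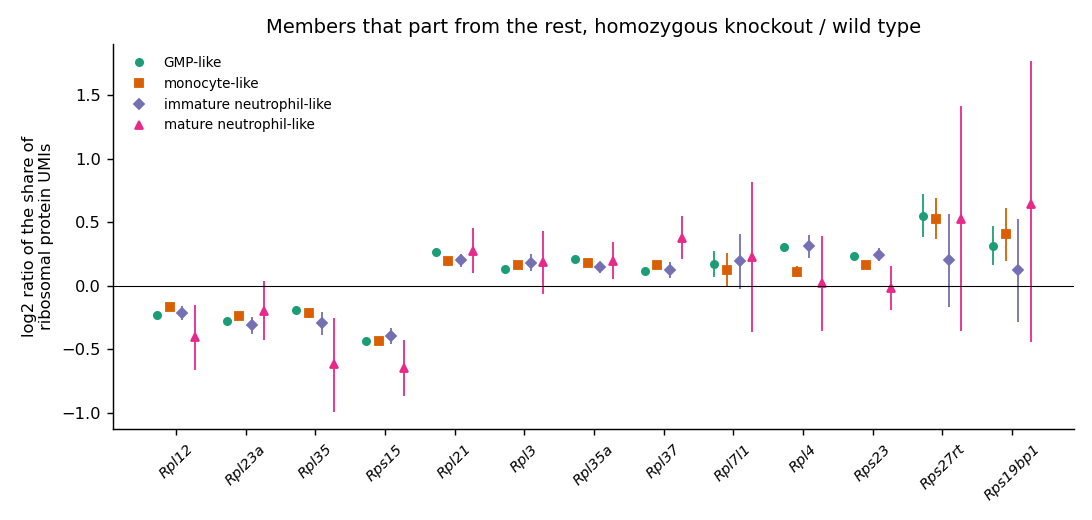
Log2 ratio, homozygous over wild-type library, of the share of ribosomal protein UMIs (vertical axis) for members named as parting from the rest, in 4 classes, with 95% counting intervals. Rps15 lies between −0.64 and −0.40 in the 4 classes and Rpl21 between 0.19 and 0.28, while mature neutrophil-like cells have the widest intervals.

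In the heterozygous against the wild-type library 5 members were at least 0.25 from 0 over all kept cells. The count was 0 in GMP-like, 1 in monocyte-like, 4 in immature and 9 in mature neutrophil-like cells. Rps27 had a ratio of 0.26 (0.24 to 0.27) over all cells, and 0.03, 0.16, 0.02 and 0.26 in GMP-like, monocyte-like, immature and mature neutrophil-like cells. Mature neutrophil-like cells, in which Rps27 fell least of the subunit genes in the wild type, were more frequent in the heterozygous library, and their part in the value over all cells was not tested. Rpl9, a large subunit protein, went from 0.25 over all cells to between 0.05 and 0.12 in the classes. The single subunit gene that stayed at least 0.1 lower in all 4 classes was Rps26, which contacts the mRNA at the exit channel: it stood at 1478, 861 and 1410 CPM, with ratios of −0.12, −0.10, −0.21 and −0.15. By point value, the single member at least 0.1 higher in all 4 was Rps19bp1, with ratios of 0.18, 0.20, 0.30 and 0.18. Over all kept cells Rps19bp1 gave 1647 heterozygous and 1815 wild-type UMIs, with 327 in wild-type monocyte-like cells. Its class values thus rest on few counts, and their intervals are not given.

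Between the homozygous and heterozygous libraries, 7 members were at least 0.25 from 0. By point value, Rpl12, Rpl13a, Rpl23a, Rpl31, Rpl35, Rps15, Rps25 and Rps28 were lower by at least 0.1 in each of the 4 classes. Higher were Rpl21, Rpl7l1, Rps23 and Rps27rt. Over all homozygous cells Rpl7l1 and Rps27rt gave 3415 and 1857 UMIs, fewer than any subunit gene, and their class intervals are not given. Rps25, a small subunit head protein used by several viral entry sites, stood at 1808, 1303 and 1479 CPM, a homozygous to heterozygous ratio within the ribosomal proteins of −0.27 (−0.29 to −0.26). Rps15 had a ratio of −0.34 (−0.35 to −0.32) in this comparison, and its homozygous values are the same ones as in the comparison with the wild type.

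Coding base composition and length did not line up with these differences. Over the 77 subunit genes, Spearman's rho between the ratio within the ribosomal proteins and coding GC content, coding length or GC content of the last 300 transcript bases stayed between −0.21 and 0.21 in the 3 comparisons, given as a description.

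The paralogs lay far below the genes they resemble, apart from Rpl36al, Rpl22l1 and Rps27l. Rpl36al stood at 726, 464 and 683 CPM, close to Rpl36a at 843, 527 and 770. Rpl22l1, which can take the place of Rpl22, stood at 435, 312 and 418 CPM, against 1128, 723 and 1037 for Rpl22. Rps27l, a target of p53, stood at 308, 198 and 302 CPM. Rps27rt, a retrotransposed copy, had 31.4, 25.5 and 40.3 CPM, and its coding sequence of 255 bases is identical to that of Rps27. The last 200 transcript bases of Rps27rt and Rps27, nearer to where a 3' kit reads, were 71.7% identical. Some reads of Rps27rt may still be shared with Rps27, which was not tested. The Rps27rt ratio of 0.49 (0.40 to 0.58) between the homozygous and wild-type libraries is therefore uncertain.

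Rpl3l, a paralog best known from striated muscle, was rare and lower in the homozygous library. It gave 224, 208 and 60 UMIs, or 3.34 (2.91 to 3.8), 2.85 (2.48 to 3.27) and 1.30 (0.993 to 1.68) CPM. In monocyte-like cells it gave 87, 25 and 19 UMIs, or 5.93, 2.62 and 1.09 CPM, so the wild-type level in that class lay above both others beyond counting error. In mature neutrophil-like cells it gave 4, 40 and 7 UMIs, and at 3.99, 3.95 and 6.17 CPM the intervals overlapped. These counts are too few to show a difference of the size seen over all cells.

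Rpl39l, a paralog of the tunnel exit protein Rpl39 that is best known from the testis, was found almost only in the heterozygous library. The coding sequences are shown because the paralogs can be told apart by them: both have 156 bases, 23 of which differ (85.3% identity), and capitals mark the differing bases, from GENCODE transcripts.
Rpl39l: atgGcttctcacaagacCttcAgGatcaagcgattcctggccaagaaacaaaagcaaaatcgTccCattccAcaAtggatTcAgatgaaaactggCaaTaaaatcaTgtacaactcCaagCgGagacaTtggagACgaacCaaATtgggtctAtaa
Rpl39: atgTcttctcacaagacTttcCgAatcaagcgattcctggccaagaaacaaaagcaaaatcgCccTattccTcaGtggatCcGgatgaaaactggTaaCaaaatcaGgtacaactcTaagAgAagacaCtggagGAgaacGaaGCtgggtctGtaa
The last 200 transcript bases, nearer to where a 3' kit reads, were 44.2% identical. Rpl39l gave 0 UMIs in the 5604 wild-type cells, which allows a share of up to 0.0535% of cells with a UMI, 156 UMIs in 85 heterozygous cells (1.07%) and 8 UMIs in 2 homozygous cells. The heterozygous level of 2.14 CPM (1.82 to 2.50) was 47.9 times the wild-type floor of 3 counts, a point value that leaves out the counting error of the heterozygous level. Rpl39 itself stood at 1937, 1179 and 1803 CPM, lower in the heterozygous library as nearly all members were. Within the ribosomal proteins its heterozygous to wild-type ratio was −0.13, and 0.03 in monocyte-like cells.

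The heterozygous Rpl39l UMIs were spread over cells and classes. Of the 85 cells 52 had 1 UMI and 33 had more, with at most 8 in a cell, and those 33 cells held 104 of the 156 UMIs. They comprised 43 immature neutrophil-like, 12 mature neutrophil-like, 12 GMP-like, 4 monocyte-like and 1 dendritic-like cell, with 11 ungated cells and the rest in smaller classes. The level was 2.77 CPM in GMP-like, 0.629 in monocyte-like, 3.2 in immature and 1.48 in mature neutrophil-like cells. By sex markers, 125 of the UMIs lay in cells with Y-linked UMIs and no Xist and 1 in cells with Xist alone. Within the heterozygous library the level thus differed between cells of the same genotype label. It was 2.86 CPM in the 4507 cells with Y-linked UMIs and no Xist, and 0.0975 CPM in the 1148 cells with Xist alone. The other libraries held few cells of the former kind, 74 in the wild type and 142 in the homozygous, with 0 Rpl39l UMIs in each. Whether Y-linked cells of another genotype carry this gene was not tested. In the homozygous library 7 of the 8 UMIs came from 1 T and NK-like cell.

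Rpl10l, a retrogene that stands in for X-linked Rpl10 in the testis, gave 0, 1 and 0 UMIs, and Rps23rg1 gave 1, 4 and 6. No level is drawn from these counts. Rps19bp1, known as a regulator of Sirt1, stood at 27.0, 22.6 and 30.5 CPM. Rpl7l1, a nucleolar protein of ribosome assembly, stood at 75.3, 58.6 and 74.1 CPM.

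Other genes of translation were read from lists that the name rule leaves out. The values are over all kept cells unless a class is named. Elongation factors were lower than in the wild type for 8 of 8 in the heterozygous and 5 of 8 in the homozygous library, with medians of −0.64 and −0.06. Initiation factors were lower for 29 of 32 and 16 of 32, with medians of −0.40 and 0.01. Other genes with a TOP tract were lower for 20 of 20 and 11 of 20, ribosome biogenesis genes for 28 of 28 and 19 of 28, and nascent chain factors for 11 of 11 and 6 of 11. Over all genes 63.2% and 42.6% were lower. Against the wild type, elongation and biogenesis genes lay below the members' median of −0.59 in the heterozygous library, at −0.64 and −0.66, and the other lists of this group above it. In the homozygous library all of them lay above the members' median of −0.12, from −0.07 for biogenesis to 0.01 for initiation. Their homozygous medians lay between −0.12 and 0.06 in GMP-like, monocyte-like and immature neutrophil-like cells. In mature neutrophil-like cells they were −0.43 for elongation (6 genes measured), −0.17 for initiation (22) and −0.30 for other TOP genes (18). Biogenesis genes (6) stood there at −0.28 and nascent chain factors (9) at −0.26. Within classes the heterozygous values were smaller: elongation factors had medians of −0.17 in GMP-like, −0.28 in monocyte-like and −0.28 in immature neutrophil-like cells, and biogenesis genes of −0.34, −0.24 and −0.34.

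Mitochondrial ribosomal proteins, which belong to a separate ribosome, were lower for 78 of 78 genes in the heterozygous library, with a median of −0.43, but for 16 of 78 in the homozygous library, with a median of 0.10. In the homozygous library they thus lay on the other side of 0 from the cytosolic members over all cells. In mature neutrophil-like cells 12 of the 15 measured there were lower, with a median of −0.19, on the same side as the cytosolic members. The difference between the lists was not tested. Their heterozygous medians within classes were smaller, at −0.19 (GMP-like), −0.20 (monocyte-like), −0.16 (immature) and −0.13 (mature neutrophil-like). The mTORC1 and translation control list was lower for 9 of 17 and 8 of 17, with medians of −0.05 and 0.02. From GMP-like to mature neutrophil-like cells, biogenesis genes reached −1 for 24, 24 and 25 of 28, mitochondrial ribosomal proteins for 64, 61 and 68 of 78, and the mTORC1 list for 2, 4 and 5 of 17 in the wild-type, heterozygous and homozygous libraries. The lists that make ribosomes thus fell along the granulocytic classes with the members, and the mTORC1 list reached that fold for a smaller part of its genes than the 35.8%, 36.2% and 41.7% over all genes.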

How the data were processed

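Single-cell UMI counts per gene and barcode were deposited by the authors as 3 matrices, made with Cell Ranger 8.0.1 per the file headers, and the submitters' processing notes name Cell Ranger, STAR and mm10. The gene annotation behind the counts is not given in the sources used here. Barcodes were kept from 500 UMIs and 200 detected genes upward, if under 10% of their UMIs were mitochondrial. Cells were assigned to the best of 15 marker panels by a mean scaled log score (at least 0.3, a lead of at least 0.15 and at least 3 detected panel genes). Counts were summed per library and class and scaled to CPM. Shares have Clopper-Pearson, levels exact Poisson and ratios exact conditional 95% intervals, which cover counting error only. Ratios were read for genes that reached 50 UMIs in either library. Members named as parting from the rest come from 2 rules. The first took, over all kept cells, the 5 in each direction whose interval lay farthest from 0. The second took members at least 0.1 from 0 on the same side in every compared class. Alternatives changed the cell filters, the classes (a stricter gate, Leiden clusters made without ribosomal protein genes), the denominator, depth and the minimum count. Only the interval of the log2 ratio was tested on simulated data. Those counts were independent Poisson draws with no added spread between cells or mice, and the other steps were not simulated. Doublets were kept, with Scrublet-marked cells removed as an alternative (496, 820 and 283 of the kept cells). The members, lists, classes and tests were chosen with earlier results of these data known. The gate thresholds, the log2 limit of −1 between classes, the limit of 0.1 in all classes, the sex-marker split, the pyrimidine run of 7 and the set of granule genes were set after seeing the data. Start windows came from RefSeq GRCm38.p6 and coding sequences from GENCODE transcripts. Some items among the members and lists are not reported here. Tools were Python 3.11.15, numpy 2.4.6, scipy 1.17.1, pandas 2.3.3, scanpy 1.11.5 and matplotlib 3.10.9.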

Additional observations from a re-analysis of the deposited data

Results flagged for a closer look

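The ribosomal protein share in mature neutrophil-like cells was lower in the homozygous than in the heterozygous library by 0.255 points (a difference of −0.255), whereas it was higher by 0.548 points in GMP-like, 0.816 in monocyte-like and 0.686 in immature neutrophil-like cells. Over the alternatives, the value in mature neutrophil-like cells was between −0.400 (Leiden clusters) and −0.0425 (a stricter gate), with −0.128 without doublets. With 1 library for each genotype, the difference between the classes was not tested. Rpl39l also appeared outside the kept cells: the barcodes removed by the filters held 3 UMIs in the heterozygous library, at the limit of 3 counts that a count of 0 allows, and 0 in the wild-type library.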

How the results depend on the processing

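No paired analysis was possible because each genotype has 1 library, and for the same reason no library could be left out of a comparison. The wild-type library was highest in all 4 classes under each alternative tried except Leiden clusters, where it was highest in 3. Differences below are homozygous then heterozygous minus wild type. The share over all cells became −1.45 and −4.11 points with no filter, −1.07 and −5.31 with at least 1000 UMIs and under 5% mitochondrial, −1.59 and −4.45 with under 25% mitochondrial, −1.20 and −4.89 without doublets, −2.17 and −4.69 as a mean over cells, −1.35 and −5.21 without mitochondrial genes in the denominator, −1.27 and −4.59 without the 20 most abundant other genes, and −1.17 and −4.21 at 5000 to 15000 UMIs; without members that are not subunits the heterozygous value was −4.89. The median of the class differences (−1.26 and −1.88) became −1.22 and −1.82 with a stricter gate, −1.22 and −1.67 as a mean over cells, −1.39 and −1.29 at 5000 to 15000 UMIs and −1.29 and −1.95 without mitochondrial genes in the denominator. In mature neutrophil-like cells alone the stricter gate gave −0.645 and −0.603, against −1.31 and −1.06. The homozygous median was −1.12 without doublets, and the heterozygous one −2.24 with Leiden clusters, −1.84 with under 25% mitochondrial and −1.81 with a gate without the 3-gene minimum, an alternative chosen after seeing the data. At a fixed mix the differences were −0.711 and −1.88 with equal weights and −1.13 and −1.77 at the heterozygous mix. Single class differences that changed sign were immature neutrophil-like homozygous minus wild type (0.297, Leiden clusters) and homozygous minus heterozygous in GMP-like (−0.255 as a mean over cells, −0.119 at 5000 to 15000 UMIs) and monocyte-like cells (−0.152 at 5000 to 15000 UMIs). Member medians became −0.15, −0.69 and 0.54 (the last value homozygous against heterozygous) with a denominator outside the members and mitochondrial genes, −0.15, −0.51 and 0.37 with no filter and −0.0905, −0.61 and 0.52 with at least 1000 UMIs. Members lower by log2 0.5 in the homozygous library (2) became 1 with a minimum of 500 UMIs and 8 at a limit of 0.25; members higher by 0.5 than in the heterozygous library (31) became 54, 77, 8 and 47 with the outside denominator, a limit of 0.25, no filter and at least 1000 UMIs. Members at least 0.25 from the rest (6, 5 and 7 in the 3 comparisons) became 17, 9 and 14 within mature neutrophil-like cells, 11, 15 and 14 as a mean over cells, 0 (heterozygous) and 3 (homozygous against heterozygous) within GMP-like and 1 (heterozygous) within monocyte-like cells. For 29 ratios of single named members, 192 values were read under alternatives, single classes among them. Of these, 72 stayed within the counting error of the main value, 115 moved by more and 5 changed sign. Signs changed within mature neutrophil-like cells for Rps23 (−0.0152, homozygous against wild type), Rpl3 (−0.0370) and Rpl10a (−0.0233, both homozygous against heterozygous), within monocyte-like cells for Rpl39 (0.0326) and within immature neutrophil-like cells for Rps27rt (−0.0637, both heterozygous against wild type). The median spread over classes became 2.33 (wild type) and 2.33 (heterozygous) with a stricter gate, 1.86 and 1.96 with Leiden clusters and 2.21 (heterozygous) without the 3-gene minimum, the last settings added after seeing the data. Lower counts became 1 of 28 for biogenesis genes against the heterozygous library without doublets, and 14 and 4 of 17 for the mTORC1 list (heterozygous against wild type, homozygous against heterozygous) with the outside denominator. The causes were not tested. Mature neutrophil-like cells, 171 and 186 in the wild-type and homozygous libraries, were the fewest of the 4 classes there, which limits the members' values in that class.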
